A study of Mus musculus with 19 samples.

Results

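The Saa2-high young mice are 3 of the 10 young mice in a study of hepatocytes, the main metabolic and plasma-protein-secreting cells of the liver. They were chosen by a measured value: a young library joined the group when Saa2, a serum amyloid A gene, exceeded 1000 CPM (counts scaled to the same total over genes in every library). Mice 1184, 1186 and 1188 met the rule, and the other 7 young mice formed the reference. Because Saa2 chose the groups, every difference between them is given as a description and no test of it was made. Saa2 stood at 3664 CPM in mouse 1188, the member nearest the limit, and at 21.7 CPM in mouse 1182, the nearest mouse outside it.

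All 19 mice of the study were male, of the C57BL/6J strain and WT genotype. The young group holds 10 mice (5 months) and the old group 9 (24 months), and hepatocytes came from a perfusion of the liver in 2 steps. No treatment or transgene is given for any mouse, and each library comes from 1 mouse, named here by its library number. The 3 Saa2-high mice and reference mice 1180 and 1182 share the first of 2 cull days, which lay 23 days apart. The other 5 reference mice (1235, 1237, 1239, 1243 and 1244) belong to the second. Of the old mice, 5 belong to the first cull day and 4 to the second. Counts over genes totalled 18202503 to 18836679 in the Saa2-high libraries and 17381439 to 19583060 in the reference. The Saa2-high libraries detected 15015 to 15242 genes and the reference 14879 to 15285. Counts over genes made up 85.9% to 86.5% of the total stated for each Saa2-high library and 82.5% to 85.5% for the reference. These shares did not overlap, and their part in the differences below was not tested.

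The acute-phase response is the change in plasma proteins made by the liver after infection, injury or other inflammatory stimuli. Interleukin-6 acts on hepatocytes through its receptor and the transcription factor STAT3, and interleukin-1 and tumour necrosis factor act through NF-kB. With C/EBP factors, these turn on genes for serum amyloid A, haptoglobin, hemopexin, fibrinogen, orosomucoids and lipocalin-2. Negative acute-phase proteins such as albumin and transthyretin decline, and fatty acid oxidation genes governed by the nuclear receptor PPAR-alpha are known to be lowered by inflammatory signals.

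The start-site regions of 6 genes far above the reference are printed, because C/EBP, STAT and NF-kB factors bind in such regions. They were picked after the motif search, 5 to show a match to each motif and Lcn2 to show a region without one, so they are no sample of the higher genes. Each run is the 200 bases directly upstream of the gene's RefSeq start on GRCm38.p6, read 5′ to 3′ on the gene's strand. Capitals mark a match, on either strand, to the letters TTGCNNAA for C/EBP, TTCNNNGAA for STAT or, for NF-kB, GG, any 3 bases, then TTTCC. A match describes the letters only.
Saa1, chr7:46742981-46743180, minus strand: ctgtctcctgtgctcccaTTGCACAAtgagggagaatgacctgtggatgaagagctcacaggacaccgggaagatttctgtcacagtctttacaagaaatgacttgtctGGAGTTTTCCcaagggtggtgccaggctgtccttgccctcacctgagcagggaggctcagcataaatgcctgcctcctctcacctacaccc
Saa2, chr7:46751633-46751832, plus strand: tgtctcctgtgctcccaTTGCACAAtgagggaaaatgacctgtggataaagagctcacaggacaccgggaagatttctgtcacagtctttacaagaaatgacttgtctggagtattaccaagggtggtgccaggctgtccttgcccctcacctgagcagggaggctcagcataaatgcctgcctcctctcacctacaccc
Saa3, chr7:46715677-46715876, minus strand: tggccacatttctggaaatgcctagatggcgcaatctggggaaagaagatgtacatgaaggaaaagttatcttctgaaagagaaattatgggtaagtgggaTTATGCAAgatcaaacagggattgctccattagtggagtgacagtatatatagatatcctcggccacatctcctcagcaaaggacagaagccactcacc
Socs3, chr11:117969367-117969566, minus strand: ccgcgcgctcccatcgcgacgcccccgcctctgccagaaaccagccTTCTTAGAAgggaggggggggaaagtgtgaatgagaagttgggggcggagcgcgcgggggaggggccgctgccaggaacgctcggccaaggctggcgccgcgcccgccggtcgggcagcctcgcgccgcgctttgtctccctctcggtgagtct
Cxcl1, chr5:90891045-90891244, plus strand: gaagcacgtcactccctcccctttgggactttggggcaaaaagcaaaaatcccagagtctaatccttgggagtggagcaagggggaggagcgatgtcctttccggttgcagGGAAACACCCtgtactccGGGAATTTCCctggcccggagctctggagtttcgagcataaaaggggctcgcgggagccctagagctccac
Lcn2, chr2:32387740-32387939, minus strand: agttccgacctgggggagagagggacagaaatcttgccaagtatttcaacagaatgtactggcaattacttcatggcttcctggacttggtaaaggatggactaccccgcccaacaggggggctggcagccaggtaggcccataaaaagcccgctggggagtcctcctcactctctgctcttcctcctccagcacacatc

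The Saa1 and Saa2 runs matched at 195 of 201 aligned positions (97.0%). Both held a C/EBP match, starting 182 and 183 bases before the start, and the Saa1 run also held an NF-kB match 91 bases before it. No match to the NF-kB letters lay in the Saa2 run. Saa3 held a C/EBP match 99 bases before its start, Socs3 a STAT match 154 bases before, and Cxcl1 a pair of NF-kB matches, 89 and 71 bases before. The Lcn2 and Mt1 regions held none of these letters, and those of Orm2 and Mt2 held a C/EBP match each. Of 9820 tested genes with a region of this length, 6.04% held the C/EBP letters, 4.78% the STAT letters and 3.96% the NF-kB letters. No comparison of these shares with the genes that differed between the groups is drawn. Only 274 of 367 higher, 129 of 176 lower and 9820 of 12296 tested genes had a region in the RefSeq table, under 80% of each.

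Serum amyloid A proteins travel on high-density lipoprotein and are among the most inducible liver products. Saa2 (chromosome 7, 46751833 to 46754314, plus strand, mm10) stood at 6103 CPM in mouse 1184, 9663 CPM in mouse 1186 and 3664 CPM in mouse 1188. In the 7 other young mice it lay between 8.92 and 21.7 CPM, with a median of 15.9. The group means were 6477 ± 3017 CPM (SD, n = 3) and 15.6 ± 4.55 CPM (SD, n = 7), a mean difference of 8.63 on the log2 CPM scale. These values set the groups and carry no test. Its neighbour Saa1 (chromosome 7, 46740499 to 46742980, minus strand) showed the same order, at 5133, 7884 and 3193 CPM against 15.0 to 32.8 CPM. The Saa1 and Saa2 transcripts are 93.9% identical (572 of 609 aligned bases), so how reads divide between them is uncertain.

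Saa3, the family member also made outside hepatocytes, stood at 90.5, 122 and 29.4 CPM in mice 1184, 1186 and 1188, against 1.89 to 4.09 CPM. Saa4, the constitutive member of the family, was nearly level within the Saa2-high group, at 1505, 1422 and 1357 CPM, and lay between 262 and 410 CPM in the reference. Beside Saa2, whose separation is the rule itself, the other 3 genes also lay above every other young mouse. The spread within the group was narrowest for Saa4, with an SD of 0.09 in log2 CPM against 0.70 for Saa1 and 1.11 for Saa3. Without Saa2 the family took 0.458% to 0.943% of counts in the Saa2-high mice and 0.028% to 0.044% in the other young mice.

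Of 24537 genes in the table, 12296 passed the filter of about 10 counts in at least 3 young libraries. A gene was called higher or lower when all 3 Saa2-high libraries lay beyond all 7 others and the means differed at least 2-fold. By this rule 367 genes (2.98% of those tested) were higher and 176 (1.43%) were lower. The median log2 difference over all tested genes was 0.02. Differences of at least 4-fold were reached by 91 of the higher and 37 of the lower genes, and of at least 8-fold by 35 and 8. Of the higher genes, 69 had passed the filter with fewer than 3 reference libraries at its level, so that they could hardly have been called in the other direction. Leaving out mouse 1188 raised the counts to 616 higher and 259 lower.

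**Figure D1:**
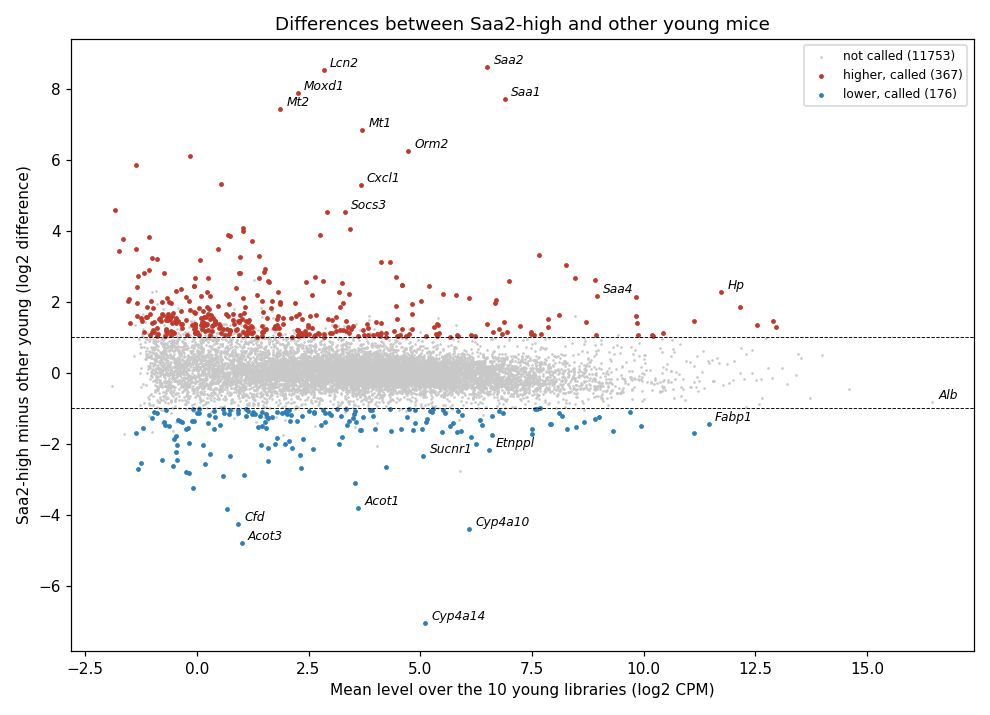
Each point is 1 of 12296 genes: the x axis is its mean level over the 10 young libraries (log2 CPM) and the y axis is the mean log2 CPM of the 3 Saa2-high mice minus that of the 7 other young mice. Red points are the 367 higher and blue points the 176 lower genes, dashed lines mark 2-fold, and Saa2 at 8.63 and Cyp4a14 at -7.06 are the extremes among the labelled genes.

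The 3 Saa2-high mice were all of the first cull day, so they were also set against the 2 reference mice of that day alone. Mice 1180 and 1182 are among the 7 that the call rule used, so the sign of a called gene and its lack of overlap with them were fixed by that rule, and only the 2-fold limit could fail. Of 367 higher genes and of 166 lower genes tested there, 322 and 128 were also called, in a comparison that called 707 genes (5.77%) higher and 210 (1.71%) lower. With 2 libraries in place of 7, the requirement of no overlap is easier to meet.

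Lcn2 encodes lipocalin-2, which withholds iron from bacteria by binding their siderophores. It stood at 422, 1072 and 208 CPM in mice 1184, 1186 and 1188, against 0.494 to 1.84 CPM in the other young mice. The lowest Saa2-high library held 3778 counts of Lcn2 and the highest reference library 32, and the log2 difference was 8.55. Orm2, one of the orosomucoids (plasma carriers of basic and lipophilic compounds), stood at 692, 834 and 287 CPM against 4.70 to 10.2 CPM. Orm1 and Orm2 transcripts are 91.0% identical, so their split is uncertain. Orm1 was at 2770, 3136 and 2008 CPM against 463 to 746 CPM, and both genes were highest in mouse 1186 and lowest in mouse 1188.

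The metallothioneins Mt1 and Mt2 bind zinc and copper and respond to zinc, glucocorticoids and interleukin-6. Mt2 stood at 97.8, 314 and 80.3 CPM against 0.420 to 1.87 CPM in the reference, a log2 difference of 7.43. Mt1 stood at 378, 719 and 177 CPM against 1.71 to 8.46 CPM, a log2 difference of 6.85. Mouse 1235 gave the highest reference value for both. Of 9 metallothionein and zinc genes, 4 were higher (Mt1, Mt2 and the zinc importers Slc39a4 and Slc39a14) and 1, Slc39a5, was lower. Slc39a14, the importer linked to the acute-phase fall in plasma zinc, was at 264, 329 and 324 CPM against 120 to 167 CPM.

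**Figure D2:**
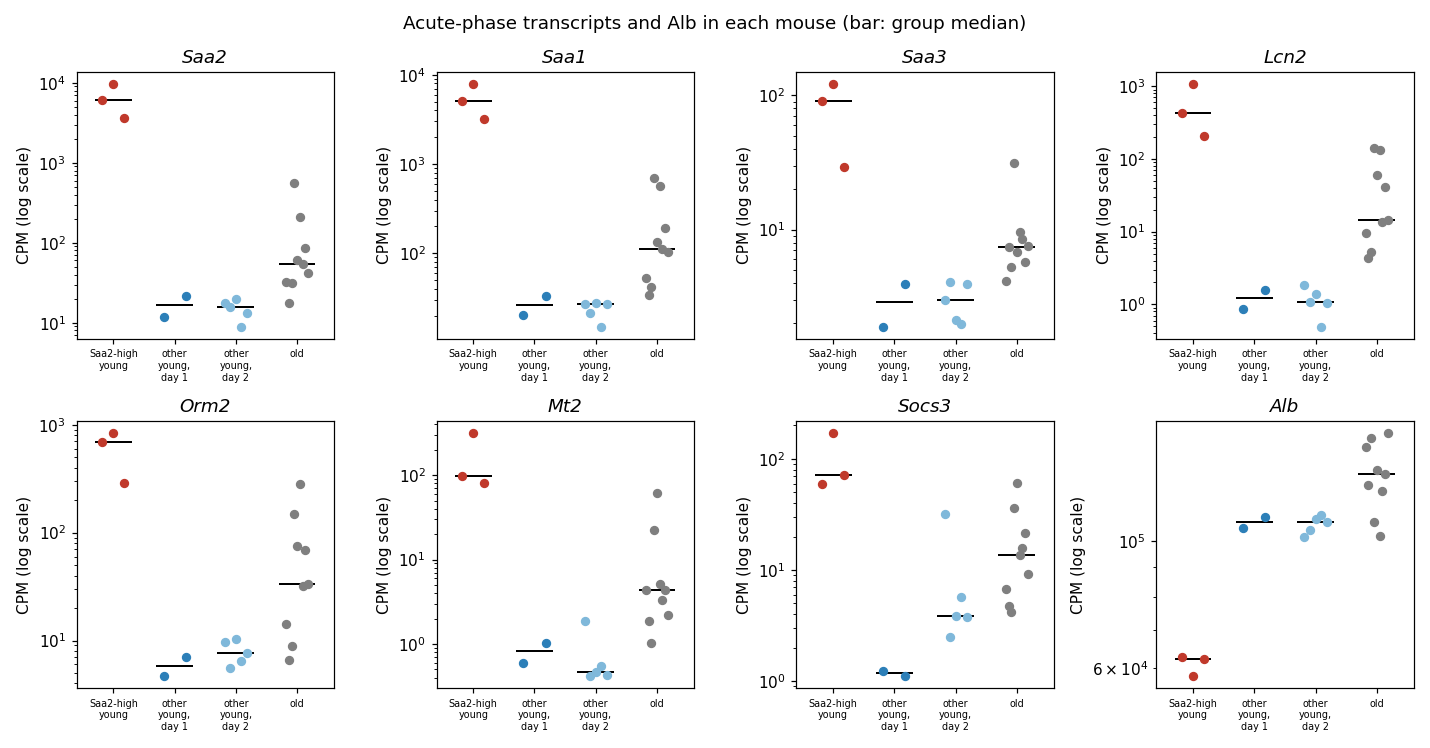
Each point is 1 mouse: the x axis gives the 3 Saa2-high young mice, the 2 other young mice of cull day 1, the 5 of cull day 2 and the 9 old mice, and the y axis gives CPM on a log scale with bars at group medians. In the panels for Saa2, Saa1, Saa3, Lcn2, Orm2, Mt2 and Socs3 the Saa2-high mice lie above all other young mice, and for Alb they lie below every other mouse.

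Across the acute-phase list as a whole, 27 of the 37 members that passed the filter were higher, 1 was lower, and the median log2 difference was 2.05. Saa2 is counted there; without it 26 of 36 were higher and the median was 1.95. Haptoglobin (Hp), which clears free hemoglobin, stood at 10715, 12581 and 8312 CPM against 1984 to 2257 CPM, and hemopexin (Hpx), which binds heme, at 11968, 12538 and 9315 CPM against 2751 to 3429 CPM. Both were well separated and tight within the reference. Fibrinogen-like Fgl1 was at 1240, 1761 and 1113 CPM against 128 to 201 CPM. The fibrinogen chains Fga, Fgb and Fgg were 2.48 to 2.79 times the reference by ratio of mean CPM. Members not called included Crp at a log2 difference of 0.81, C3 at 0.99 and Serpina1a at -0.07. Without Saa2 the list's genes together took 9.73% to 14.0% of counts against 4.30% to 4.96% in the other young mice.

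Hamp, which encodes the iron hormone hepcidin, was the 1 acute-phase member called lower, although interleukin-6 is known to raise it. It stood at 474, 190 and 249 CPM in mice 1184, 1186 and 1188, against 569 to 843 CPM, and its call was lost without mouse 1186, which left 0 acute-phase genes lower (2 without mouse 1235). Its paralog Hamp2, at 4.42, 3.96 and 3.30 CPM against 5.85 to 36.0 CPM, and Id1, a target of BMP signalling, at 1.43, 1.14 and 1.84 CPM against 2.53 to 18.7 CPM, were also lower. Of 24 iron handling genes, 5 were higher (3 without mouse 1186) and 3, namely these, were lower. The reads of Hamp and Hamp2 may be shared between the paralogs, and which were assigned where is not given in the sources used here.

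Of 20 negative acute-phase proteins none was called in either direction, and their median log2 difference was -0.19. Albumin (Alb, chromosome 5, 90460870 to 90476602, plus strand) took 6.29%, 5.82% and 6.23% of counts in mice 1184, 1186 and 1188, against 10.2% to 11.1% in the other young mice. The groups did not overlap, but the log2 difference of -0.82 stayed under 2-fold. Transthyretin (Ttr), carrier of thyroid hormone and retinol-binding protein, gave -0.89 and corticosteroid-binding globulin (Serpina6) -0.96, also without overlap. In all, 8 of the 20 lay wholly below the reference and 1 wholly above, where 11.1% and 9.48% of all tested genes did so. Transferrin (Trf), by contrast, had a log2 difference of 0.51.

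Signalling genes of the interleukin-6 and interleukin-1 pathways were examined next. Socs3, a feedback inhibitor of JAK-STAT3 signalling, stood at 59.4, 170 and 71.5 CPM against 1.12 to 32.1 CPM. Mouse 1235 supplied the 32.1 CPM, and the other 6 reference mice lay between 1.12 and 5.77 CPM. Of 15 interleukin-6 and JAK-STAT3 genes 4 were higher and none lower, namely Socs3, Osmr, Stat3 and Bcl3, with a list median of 0.74. Stat3 stood at 177, 230 and 191 CPM against 61.5 to 110 CPM. The receptor subunits Il6ra and Il6st had log2 differences of 0.93 and 0.95, under the 2-fold limit.

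Of 33 NF-kB, interleukin-1 and TNF signalling genes 8 were higher and none lower, with a list median of 0.49. The interleukin-1 receptor Il1r1 stood at 108, 133 and 124 CPM against 15.1 to 30.1 CPM and was close to level within the Saa2-high group. Irak3, an inhibitor of that receptor's signalling, and Icam1, an adhesion molecule, had log2 differences of 3.19 and 2.29. Of 11 genes that sense bacterial products 3 were higher: Tlr2 at 3.30, the lipopolysaccharide co-receptor Cd14 at 3.26 and the lipopolysaccharide-binding protein Lbp at 2.05. Of 12 acute-phase transcription factors, Cebpb (1.15) and Stat3 were higher (1 of them without mouse 1186) and none was lower.

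Among 14 chemokines, Cxcl1, Cxcl14 and Ccl6 were higher and Ccl27a was lower, at -1.14, a call that was lost against the same-day mice at -0.85. Without mouse 1188, 5 chemokines were higher, and 2 of the 14 had passed the filter through the Saa2-high mice. Cxcl1, which attracts neutrophils, stood at 165, 239 and 114 CPM against 2.26 to 15.6 CPM, with mouse 1235 again the highest of the reference. Cxcl14 stood at 23.03, 27.8 and 10.9 CPM against 0.196 to 1.06 CPM. Prtn3, which encodes the serine protease proteinase 3 of neutrophil granules, stood at 15.0, 28.3 and 12.1 CPM against 0.058 to 0.341 CPM. With 1 to 6.5 counts in the reference libraries, it passed the filter through the Saa2-high mice alone and could hardly have been called lower. The granule genes Elane and Mpo stayed at or under 0.504 CPM in all young mice. Moxd1, a monooxygenase-like gene, stood at 312, 156 and 225 CPM, while the reference ran from 0 to 13.2 CPM with a median of 0.525. Tmc5 had 4.15 to 10.1 CPM in the Saa2-high mice and at most 1 count in any reference library, so no fold is given.

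Cytochrome P450 genes of the Cyp4a group hydroxylate fatty acids at the end of the chain and are classical PPAR-alpha targets. Cyp4a14 (chromosome 4, 115486200 to 115496141, minus strand) stood at 0.933, 2.18 and 0.494 CPM in mice 1184, 1186 and 1188. The other young mice lay between 14.6 and 486 CPM, with a median of 152, and mouse 1235 was the lowest of them. The log2 difference of -7.06 was the lowest among the called genes named here, and 1 of the Saa2-high libraries held only 9 counts. Cyp4a10 stood at 6.45, 14.8 and 5.27 CPM against 61.9 to 310 CPM. Cyp4a10 shares close relatives in the same cluster, and its transcript is 78.1% identical to Cyp4a31 over the aligned length, so its counts are uncertain.

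Acot1, Acot2 and Acot3 encode acyl-CoA thioesterases, which release free fatty acids from coenzyme A. Acot1 stood at 2.72, 0.876 and 2.56 CPM against 14.0 to 53.6 CPM, and Acot2 at 0.631, 0.849 and 0.879 CPM against 2.07 to 10.5 CPM. Acot3 ranged from 0.027 to 0.186 CPM against 0.892 to 24.8 CPM, with as little as 0.5 of a count in 1 Saa2-high library. Abcd2, a peroxisomal importer of very long-chain fatty acids, was nearly equal in the 3 mice, at 2.55, 2.42 and 2.53 CPM, against 8.63 to 31.9 CPM. For each of these genes the groups did not overlap.

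Of 29 fatty acid oxidation and ketogenesis genes 7 were lower and none was higher, 27 had a negative difference, and the list median was -0.61. The 7 were Acot1, Fgf21, Vnn1, Acaa1b, Fabp1, Ehhadh and Acsl1. Fabp1, the liver fatty acid-binding protein, stood at 1486, 919.5 and 1950.0 CPM against 2690 to 6451 CPM, and Fgf21, a fasting hormone, at 0.522, 0.239 and 0.522 CPM against 0.863 to 7.70 CPM. The entry enzyme Cpt1a gave 0.02 and Ppara itself -0.15, both within overlapping groups.

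**Figure D3:**
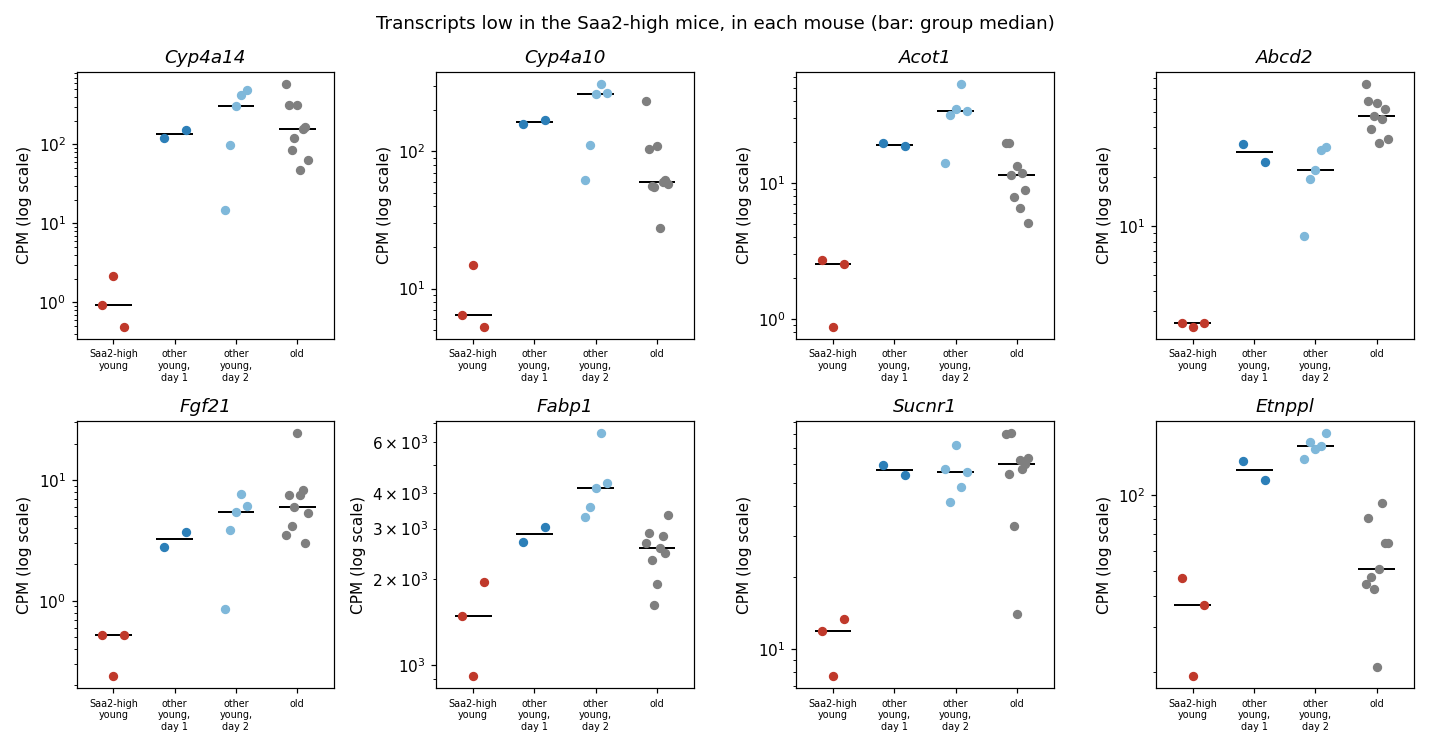
Each point is 1 mouse, in the same 4 groups as for the acute-phase transcripts, with CPM on a log scale and bars at group medians. All 3 Saa2-high mice lie below every other young mouse for the 8 genes, while mouse 1235 of cull day 2 gives the lowest reference point for Cyp4a14, Cyp4a10, Acot1, Abcd2 and Fgf21.

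Other lower genes were spread over several roles. Sucnr1, the receptor for succinate, stood at 11.9, 7.72 and 13.4 CPM against 41.3 to 72.2 CPM, and Etnppl, which degrades phosphoethanolamine, at 47.1, 19.3 and 36.8 CPM against 114 to 175 CPM. Cfd, the adipsin protease of the alternative complement pathway, was at 0.055 to 0.212 CPM against 0.575 to 9.60 CPM, again with mouse 1235 the lowest of the reference. The log2 differences of Clec2h, Slc17a8 and Serpinb1a were -2.67, -2.65 and -2.31.

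Genes of drug and steroid metabolism were lower more often than higher. Of 60 cytochromes P450 9 were lower and none higher, with a list median of -0.48 and 52 negative differences. Cyp2b10, a target of the receptor CAR, stood at 0.714, 1.17 and 0.907 CPM against 2.07 to 6.23 CPM. Of 45 conjugating enzymes and esterases 9 were lower and 1, Ugt2b37, was higher, and the median was -0.57. Ces1d, a triglyceride and drug esterase, stood at 406, 184 and 314 CPM against 661 to 1033 CPM. Of 25 hepatocyte transporters and 15 bile acid synthesis genes none was called.

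Few genes were called in several other hepatocyte lists. Of 35 hepatocyte transcription factors and nuclear receptors only Esr1 was called (higher, 1.05), and at 0.86 it was not called against the same-day mice. The count of 1 became 0 without mouse 1244 and 2 without mouse 1180 or 1182. Hnf4a had a log2 difference of 0.12 and Cebpa of -0.33. None of 24 growth hormone axis genes, 43 urea cycle and amino acid genes, 21 clock genes, 20 heat shock genes or 20 major urinary protein genes was called. Cholesterol synthesis had a list median of 0.49 and 11 of 25 genes wholly above the reference, where 9.48% of all tested genes lay. Of the 25, 2 were called higher (Hmgcs1 and Sqle), and neither was called against the same-day mice. Without mouse 1186 the count was 0, and without 1243 or 1244 it was 1. Secretory folding and ER stress genes had 1 of 31 higher, Asns, which makes asparagine, with 27 positive differences and a median of 0.40, and 2 higher without mouse 1235. Of 48 type 1 interferon genes 45 had a positive difference, and the list median was 0.37. Wholly above the reference lay 16 of them, against 9.48% of all tested genes. By the call rule 3 were higher and none lower. Leaving out mouse 1186 made the count 6, and 2 of the 48 had passed the filter through the Saa2-high mice.

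**Figure D4:**
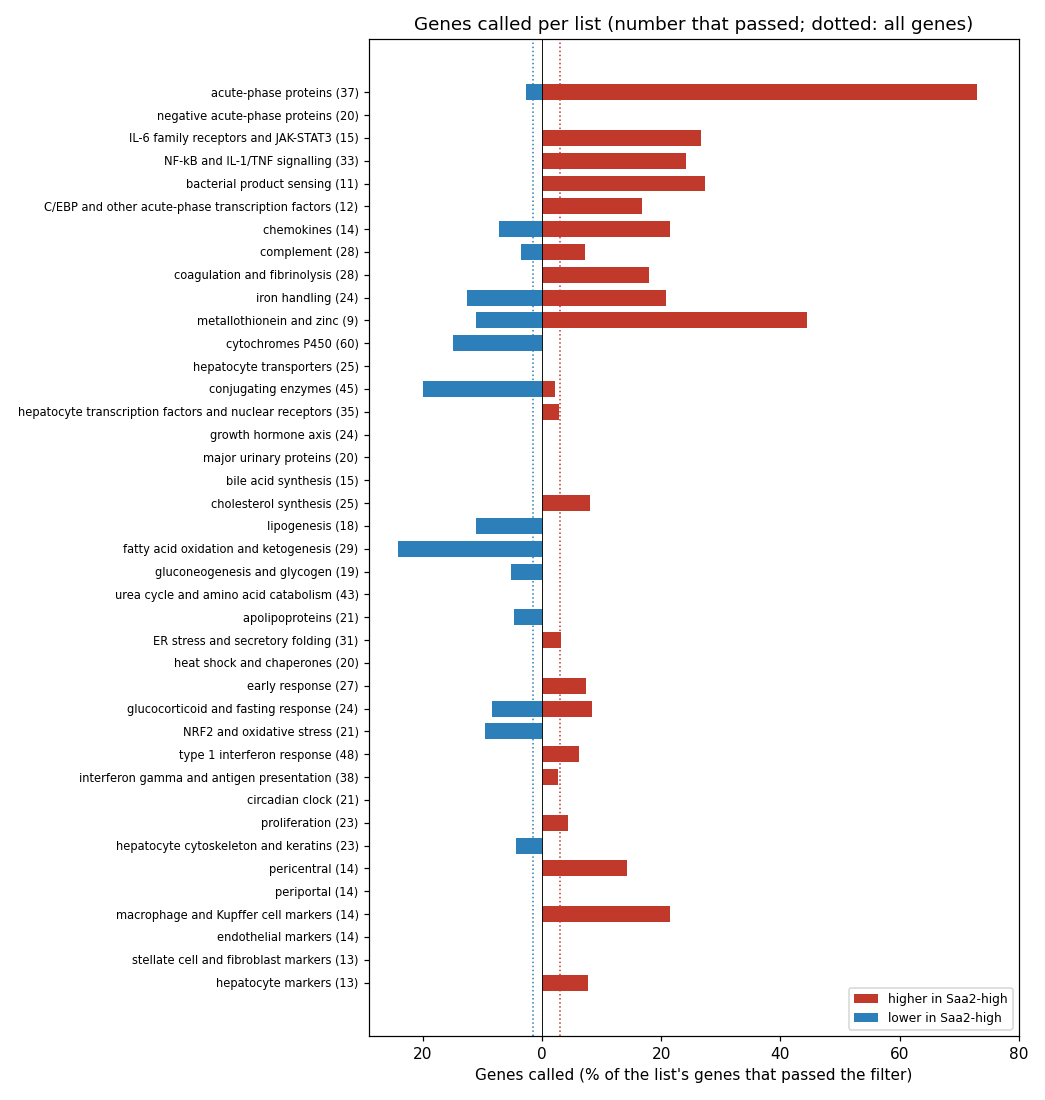
Bars give the percentage of each list's genes (y axis; the number that passed the filter is in parentheses) that were called higher (red, to the right) or lower (blue, to the left) in the Saa2-high mice. Dotted lines mark 2.98% and 1.43%, the shares over all genes; the acute-phase bar covers 27 of 37 genes and the fatty acid oxidation bar 7 of 29.

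Early response genes, the first to be transcribed after many kinds of stimulus, depended on which reference was used. Of 27 genes, 2 were higher against all 7 mice (4 without mouse 1243) and the list median was 0.18. Against the same-day mice 11 were higher, in a comparison that called 5.77% of all genes higher, and the median was 0.87. Against the second-day mice the median was -0.06. Fos averaged 29.8 ± 3.36 CPM in the Saa2-high mice (SD, n = 3), stood at 1.81 and 3.91 CPM in the same-day mice, and ranged from 9.28 to 29.99 CPM on the second day.

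The cell type labels were checked, since a hepatocyte preparation can carry other liver cells. Summed over 13 hepatocyte markers the level was 134612 to 139421 CPM in the Saa2-high mice and 162356 to 176335 CPM in the reference. The lower sum lay in Alb, which gave 58240 to 62870 CPM of it in the Saa2-high mice, against 101546 to 110878 CPM. Of the 13 markers 1, the acute-phase gene Fgb, was called higher and none lower. Their differences were positive for 6 and negative for 7, with a list median of -0.17. Macrophage and Kupffer cell markers moved with the groups: their 14 genes summed to 527, 384 and 246 CPM in mice 1184, 1186 and 1188 against 106 to 276 CPM. No marker of that list was at 0 in all young mice, and the sums of the groups overlapped. Of the 14, Cd163, Cd5l and Timd4 were called higher, and the median was 1.15. All 14 were called against the same-day mice, where 5.77% of all genes were called higher. Against the full reference all 14 were also called without mouse 1188, and 11 without mouse 1235. Their part in the differences above was not tested.

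Neutrophil markers summed to 2.28 to 10.1 CPM against 0.631 to 3.14 CPM, with Ly6g at 0 and 10 of 15 genes under 1 CPM in all young mice. The same-day mice had 1.58 and 2.01 CPM, below all 3 Saa2-high mice. Cholangiocyte markers summed to 38.8, 171 and 45.4 CPM against 17.9 to 25.0 CPM, without overlap, and 5 of the 10 stayed under 1 CPM. That sum was largely Spp1 (osteopontin, also made by macrophages), at 24.6, 144 and 25.8 CPM against 2.18 to 6.76 CPM. Spp1 was not the only one called: of the 3 cholangiocyte genes that passed the filter 2 were higher (1 without mouse 1186) and none lower. The list median was 1.28. Stellate cell and fibroblast markers summed to 77.7 to 138 CPM against 51.4 to 136 CPM in the 7 reference mice, which overlap, but to only 51.4 and 64.8 CPM in the same-day mice, which do not. All 13 stellate genes that passed had a positive difference, with a median of 0.60. Against the same-day mice 6 were called, where 5.77% of all genes were called higher. Endothelial, T and NK cell, B and plasma cell, and erythroid sums overlapped in both comparisons. In bulk libraries, fewer cells of a type and less RNA per cell cannot be told apart.

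The 3 mice also differed among themselves. Mouse 1186 was the highest of the 3 for 60.2% of the 367 higher genes, against 37.4% of all tested genes, and mouse 1188 was the lowest for 69.8%, against 33.6%. The order of Saa2 itself (1186, then 1184, then 1188) was followed by 43.3% of the higher genes and 17.9% of all. Among the 176 lower genes mouse 1186 was the lowest for 61.4%, against 33.7% of all tested genes. The reverse of the Saa2 order was followed by 41.5% of the lower genes, against 16.3% of all. Because the genes and the groups were chosen on these libraries, these shares are descriptions. Macrophage markers followed another order, highest in mouse 1184.

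Old mice had no part in the rule, so the relation of other genes to Saa2 could be tested in them. Saa2 ranged from 17.7 to 556 CPM among the 9, with a median of 54.5, all below the Saa2-high mice. edgeR's quasi-likelihood test of the slope on log2 Saa2, with cull day in the model, called 997 genes (7.92%) with a positive and 66 (0.524%) with a negative slope at an adjusted p of 0.05. Of the 367 genes higher in the Saa2-high young mice, 346 were tested in old mice. A positive slope was found for 299 of them (86.4%, against 48.5% of all genes), of which 102 (29.5%) passed. Of 171 tested lower genes 143 (83.6%, against 51.5% of all genes) had a negative slope and 10 (5.85%) passed. Genes are not independent replicates, so no p is given for these shares.

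These calls rested on old mouse 1187, which had the 556 CPM of Saa2 and whose macrophage markers summed to 3871 CPM, where the remaining 8 old mice had 72.5 to 807 CPM. It also stood above them for T and NK cell markers (43.5 against at most 3.64 CPM), neutrophil markers (41.0 against 12.7), stellate markers (599 against 259) and endothelial markers (763 against 546). Without it 2 of 12481 genes (0.016%) passed, both with a positive slope: Saa1 (slope 1.14, edgeR adjusted p = 0.00312) and Orm2 (slope 1.66, edgeR adjusted p = 0.0403). The slope is the log2 change per doubling of Saa2. Lcn2 had a slope of 1.80 and an edgeR adjusted p of 0.0504. Positive slopes were still found for 293 of 343 higher genes (85.4%, against 50.3% of all genes). Negative slopes were found for 130 of 170 lower genes (76.5%, against 49.7% of all genes). Without mice 1187 and 1236, the pair farthest from the median, edgeR called 0 of 12598 genes (0.0%), with 1772 past 0.05 before adjustment. Other old mice also moved the counts: positive calls numbered 420 without mouse 1183 and 494 without mouse 1185. Negative calls were 12 and 17 without those mice, 0 without 1187, 124 without 1189, 24 without 1238 and 31 without 1240. Saa2 itself is left out of all these counts.

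The slope of Cyp4a14 did not pass among all 9 old mice: it ranged from 47.9 to 580 CPM, the slope was -0.37 with an SE of 0.21, and the edgeR adjusted p was 0.356. All 9 old mice lay above the Saa2-high young mice for Cyp4a14 and for Abcd2. Moxd1 stayed at or under 0.597 CPM in every old mouse, including mouse 1187, which had 0.101 CPM.

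All Saa2-high mice came from the first cull day, so the day itself was tested in the old mice. edgeR called 0 of 12592 genes (0.0%), 1200 passed 0.05 before adjustment, and no adjusted p was lower than 0.473. DESeq2 called 45, and none of these was among the 367 higher or 176 lower genes. In young mice the cull day and the Saa2-high state cannot be separated fully, since no Saa2-high mouse was of the second day.

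The age comparison shows how far the 3 libraries bear on a test between labelled groups. With all 19 libraries and cull day in the model, edgeR called 2005 genes (16.3%) higher and 1780 (14.5%) lower in old mice, and 2 of 37 acute-phase genes were higher, Serpina3f and Serpina3g. Without the Saa2-high mice 1806 (14.6%) were higher and 1549 (12.5%) lower, with 30 of 37 acute-phase genes higher. That second fit leaves out libraries by a measured value and is no independent test. It also shares its young mice with the comparison of young groups above.

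The second cull day holds 5 young and 4 old mice and no Saa2-high library. Its libraries share a label, but this fit was added after the Saa2-high mice were known to be of the first day. Its 5 young mice are also all reference mice, so it is no independent test of age. On that day edgeR called 1505 genes (12.2%) higher and 884 (7.15%) lower in old mice. Of 37 acute-phase genes 32 were higher and none lower, with a median log2 fold change of 1.17. Markers of other cells were also higher in these old mice: 13 of 14 macrophage genes (median 1.55), 12 of 13 stellate genes (median 1.35), 7 of 14 endothelial genes (median 0.68) and all 3 neutrophil genes tested (median 2.16). Their part in the acute-phase difference was not tested. Lcn2 stood at 13.7 to 135 CPM in these old mice against 0.494 to 1.84 CPM in young mice (log2 fold change 5.43, SE 0.73, edgeR adjusted p = 0.000944). Fgl1 stood at 729 to 1144 CPM against 137 to 201 CPM (log2 fold change 2.44, SE 0.15, edgeR adjusted p = 1.5e-05). Hp stood at 4541 to 10821 CPM against 1984 to 2257 CPM (log2 fold change 1.70, SE 0.21, edgeR adjusted p = 0.000578). For all 3 genes every old mouse lay above every young mouse of that day. Leaving out each of the 9 libraries in turn left 26 to 33 acute-phase genes higher, and the count of all genes lower in old mice was 554 without mouse 1240.

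**Figure D5:**
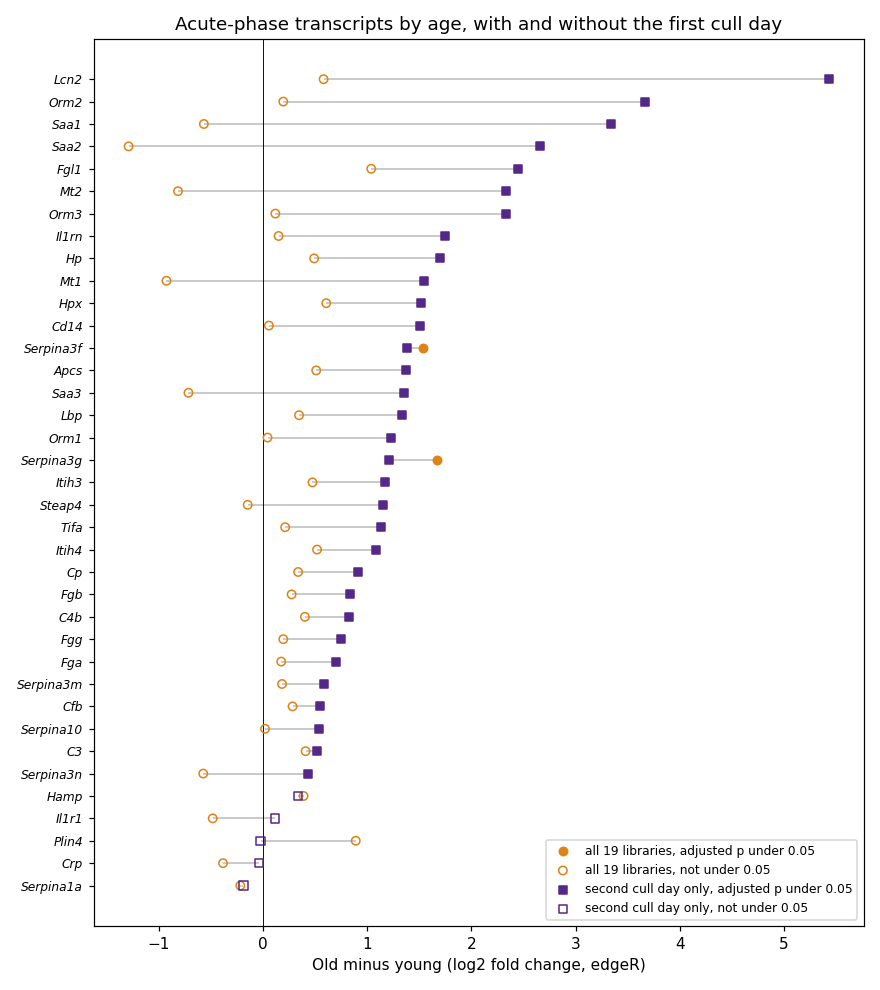
The x axis is the edgeR log2 fold change of old against young mice for the 37 acute-phase genes on the y axis, with all 19 libraries (orange circles) and with the second cull day only (purple squares); filled symbols passed an adjusted p of 0.05. Of the genes shown, 2 passed with all libraries and 32 with the second cull day, and Lcn2 moves from 0.58 to 5.43.

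On the first cull day, where 3 of the 5 young mice are Saa2-high, edgeR called 231 genes (1.88%) higher and 219 (1.79%) lower in old mice. It called 0 of 37 acute-phase genes, with 8 past 0.05 before adjustment. Among fatty acid oxidation genes 19 of 29 were lower in old mice on the second day, with a median log2 fold change of -0.37, and 5 with all 19 libraries. That count on the second day ran from 12 to 24 when each library was left out, and was 12 without mouse 1238 or mouse 1240. Acot1 stood at 5.05 to 11.8 CPM in old and 14.0 to 53.6 CPM in young mice of that day (log2 fold change -2.10, SE 0.34, edgeR adjusted p = 0.00172). Whether age acts differently on the 2 days was tested as an interaction. There edgeR called 0 of 12269 genes (0.0%), 799 (6.51%) passed 0.05 before adjustment, and no adjusted p was lower than 0.542. Of 37 acute-phase genes 26 (70.3%) passed 0.05 before adjustment, 25 of them with a larger value on the second day. Of 29 fatty acid oxidation genes 10 (34.5%) did so, none with a larger value. The list medians, second day minus first, were 1.64 and -0.43. The interaction was added after the 3 mice were known and draws on them, so it is no independent test of age by day. These p-values measure the spread between mice as labelled.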

How the data were processed

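Poly(A) RNA from hepatocytes of each mouse was sequenced as a stranded paired-end library, per the labels' protocols. The authors deposited 1 table of estimated counts per gene, made for mm10 (GRCm38) by HOMER from exons of RefSeq transcripts, per the file headers. STAR and HOMER are named, without versions, in the submitters' processing notes. The strand setting and the handling of reads with several matches are not given in the sources used here, so overlapping genes and near-identical relatives are uncertain. The deposited counts were multiples of 0.5 (29.2% of values not whole) and were rounded for count tests. Totals were 17381439 to 20287629 counts per library, and a floor of 3 counts was used. These totals limit only counting error.

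Young groups were described on log2 CPM with TMM scaling and a prior count of 2, with the call rule given above. Old mice, cull day and age were tested with edgeR 4.0.16 (R 4.3.3) by quasi-likelihood with Benjamini-Hochberg adjustment over all genes that passed filterByExpr (minimum count 10); standard errors are the absolute effect over the square root of F. DESeq2 1.42.0, other scalings, filters, prior counts and references, and leaving out each mouse were alternatives. Age on each cull day alone, the interaction of age and cull day, and DESeq2 without mouse 1187 were added after seeing the data. The scripts were tested on simulated data. The tests had been written for whole counts and were kept after rounding.

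The groups, the 46 gene lists and the rules were chosen with earlier results of these data known. Genes named were the 12 largest rises and 12 largest falls among called genes with at least 5 CPM in the higher group and the same direction against the same-day mice, without predicted genes, immunoglobulin or T-cell receptor segments; the serum amyloid A genes, Lcn2 and Alb; and up to 4 called genes per list. Other genes named were chosen after their values were seen. Start-site sequences are from RefSeq for GRCm38.p6, matched by symbol, accession or synonym. No paired comparison was made, since mouse numbers are not shared between groups.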

Additional observations from a re-analysis of the deposited data

Results flagged for a closer look

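Single mice far from the rest of their group were looked for in the serum amyloid A genes, Lcn2, Alb and the 24 genes with the largest differences, in the 7 other young and the 9 old mice, as a gap to the nearest mouse that is large for the group's range on a log2 scale with 1 CPM added. Of 54 groups examined 9 held such a mouse (16.7%), where chance gives about 1 in 20 for independent groups. These groups are not independent, since their genes were measured in the same mice, so the excess was not tested. Of the 9, 5 were in reference mouse 1235 of the second cull day. It had 8.46 CPM of Mt1, against 1.71 to 2.94 CPM in the other 6 reference mice. Its Cxcl1 was 15.6 CPM, against 2.26 to 4.62 CPM, and its Socs3 was 32.1 CPM, against 1.12 to 5.77 CPM. On the low side, its Cfd was 0.575 CPM, against 3.81 to 9.60 CPM, and its Abcd2 was 8.63 CPM, against 19.5 to 31.9 CPM. In each of these the mouse stood apart on the side of the Saa2-high mice, while its Saa2 of 17.5 CPM lay within the range of the reference.

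Among old mice, mouse 1187 had 31.2 CPM of Saa3, and mouse 1236 had 774 CPM of Saa4 and 0.597 CPM of Moxd1. Mouse 1189 had 0.123 CPM of Clec2h, the lowest old value.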

How the results depend on the processing

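No paired analysis was possible because mouse numbers are not shared between the groups. In the young groups the number of higher genes became 707 with the same-day reference alone, and ran from 359 to 616 when each young mouse was left out (164 to 259 lower, 26 to 30 acute-phase and 5 to 8 fatty acid oxidation genes). For the named genes, 1438 of 1445 values under other settings moved by less than the spread within groups, 7 moved further and 0 reversed. Scaling shifted the median of all genes from 0.02 to between 0.01 and 0.02.

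For the slope on Saa2 in old mice, positive calls fell from 997 to 472 with the mean of Saa1, Saa2 and Lcn2 as covariate. Negative calls, 66 in the main fit, were 34 with that covariate, 23 with library totals alone, 38 without cull day and 165 by DESeq2. Without each old mouse in turn the counts ran from 2 to 1301 positive and 0 to 124 negative; they were 420 and 12 without mouse 1183, and 494 and 17 without mouse 1185. Without mice 1187 and 1236 both were 0, and DESeq2 without mouse 1187 called 20 and 4. The cull day in old mice gave 45 calls by DESeq2 and 0 to 0 by edgeR with each mouse left out.

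For age with all libraries, the number lower was 1169 with library totals alone, 219 on the first and 884 on the second cull day, and the number higher was 231 on the first. Without the Saa2-high mice 966 were lower with library totals. Acute-phase genes higher in old mice numbered 4 with library totals, 5 by DESeq2, 0 on the first and 32 on the second day, and fatty acid oxidation genes lower in old mice 0 and 19. Within the second day, leaving out each mouse gave 1092 to 1629 higher, 554 to 847 lower, 26 to 33 acute-phase and 12 to 24 fatty acid oxidation genes. Fewer libraries entered the fits of single days; for the other changes the cause was not tested.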
